A study of Homo sapiens with 2 samples.

Results

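The 33 genes described here code for proteins that detect DNA breaks, signal them to the cell cycle or repair them. They were taken by name, from a list of 33 symbols, out of 19974 protein-coding genes on chromosomes 1 to 22 and X, and all 33 were found in the RefSeq gene table of GRCh38. The assay was CUT&RUN, in which an antibody, here against the AP-1 protein JUNB, directs a nuclease to chromatin. The DNA beside the bound protein is cut out and sequenced. The cells were IMR-90, human lung fibroblasts. There were 2 libraries, 1 from cells without treatment and 1 from cells treated with etoposide, whose dose and time are not given in the sources used here. Every value below compares 2 single libraries, so replicate error is unknown and no p-value is given.

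Etoposide traps topoisomerase II on DNA and so leaves double-strand breaks. Such breaks are bound by the MRE11, RAD50 and NBN complex, which activates the kinase ATM, while ATR answers to single-stranded DNA and PRKDC to ends held by the Ku proteins. ATM phosphorylates the histone variant H2AX around the break, the adaptor MDC1 and the ubiquitin ligases RNF8 and RNF168 extend the mark, and the ends are then joined directly by non-homologous end joining or copied from the sister chromatid by homologous recombination. AP-1 binds the palindrome TGANTCA, mostly at enhancers away from gene starts.

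The untreated list held 32550 peaks on these chromosomes and the etoposide list 25739. Peak strength is given as the number of sequenced fragments stacked at the summit, recovered from the deposited fold and p-value. Its median was 15 for untreated and 13 for etoposide peaks, and the lowest value was 5 in either list. A place that is missing from a list can still hold signal under the threshold of the peak caller. Among 12 fibroblast marker genes, 11 had an untreated summit within 10 kb and 9 had an etoposide summit. For 12 markers of epithelium, endothelium and leukocytes the numbers were 8 and 5. The shares of all protein-coding genes were 49.6% and 38.9%. Markers were not matched for gene length, so these counts do not by themselves check the cell type. Binding near a gene does not show that the gene is expressed.

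JUNB summits lay near most of these genes. In the untreated library 28 of 33 (84.8%, 95% Wilson interval 69.1% to 93.3%) had a summit inside the gene or within 10 kb of it, where 49.6% of all protein-coding genes did. In the etoposide library the number was 25 (75.8%, 59.0% to 87.2%), where 38.9% of all protein-coding genes did. Longer genes have more room for summits, so genes of similar length were counted too. Among the 200 protein-coding genes nearest in length to each member, 63.3% had an untreated and 54.2% an etoposide summit, which would give 20.89 and 17.88 of 33, and both shares lie below the members' intervals. The intervals here and below cover counting error only. A summit in both libraries was found at 25 members (75.8%), against 34.3% of all genes and 49.0% of genes of similar length, and 0 members had an etoposide summit alone, where the share was 4.61% of all genes and 5.15% of genes of similar length, so a count of 0 is near that share. Measured per length, summits inside the members numbered 17.3 per Mb in the untreated library (exact Poisson interval 12.7 to 22.9) beside 13.8 over all genes, and 10.6 in the etoposide library (7.13 to 15.3) beside 10.5, so that the numbers per Mb lay within counting error of all genes.

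At the gene boundaries the libraries differed more. A summit within 1 kb of the start or the end was found at 11 of 33 genes in the untreated library (33.3%, 19.8% to 50.4%), where 16.6% of all protein-coding genes had one. It was found at 1 of 33 in the etoposide library (3.03%, 0.537% to 15.3%), where 6.87% of all protein-coding genes had one. Of genes of similar length, 18.2% had such a summit without treatment and 7.86% after etoposide. The untreated share of the members was above that of genes of similar length, which lay just under its interval, and the interval of the etoposide share took in the value for genes of similar length. Many of these genes sit close to a neighbour: 20 of 33 (60.6%) had a boundary of another protein-coding gene within 1 kb, against 28.6% of all genes. With genes alike both in length and in having such a neighbour, a comparison chosen after the data had been seen, the untreated share was 21.7%, which lies inside the interval of the members.

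**Figure D1:**
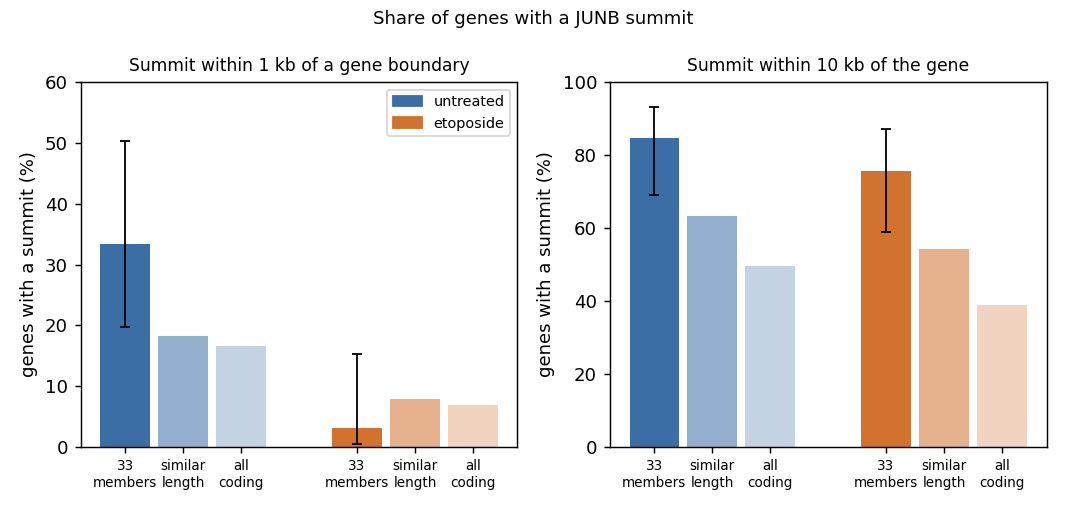
Share of genes (%) with at least 1 JUNB summit within 1 kb of a gene boundary (left) or within 10 kb of the gene (right), for the 33 members, for genes of similar length and for all protein-coding genes, without (blue) and with (orange) etoposide, 1 library each. Error bars are 95% Wilson intervals of the members' share; at the boundaries the members stand at 33.3% without and 3.03% with etoposide.

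Both windows together placed 62 untreated and 41 etoposide peaks at the 33 genes, a ratio of 0.661 where the whole lists had 0.791. Away from the members' boundaries there were 50 untreated and 40 etoposide peaks, a ratio of 0.8 beside 0.830 for peaks of the whole lists away from gene boundaries. At the members' boundaries there were 12 and 1, a ratio of 0.0833 (exact Poisson intervals 6.20 to 21.0 and 0.0253 to 5.57 peaks), beside 3049 and 1255 in the whole lists, a ratio of 0.412. The ratio was lower at the boundaries of these genes than away from them, on small numbers of peaks. By gene, 14 members had more untreated summits, 3 had more etoposide summits (XRCC5, BRCA1 and FANCD2), 11 had equal numbers and 5 had none in either library. This split was not counted over other genes, and the untreated list was the longer one. Within 10 kb, members had a mean of 1.88 untreated and 1.24 etoposide summits, beside 1.64 and 1.18 for genes of similar length.

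**Figure D2:**
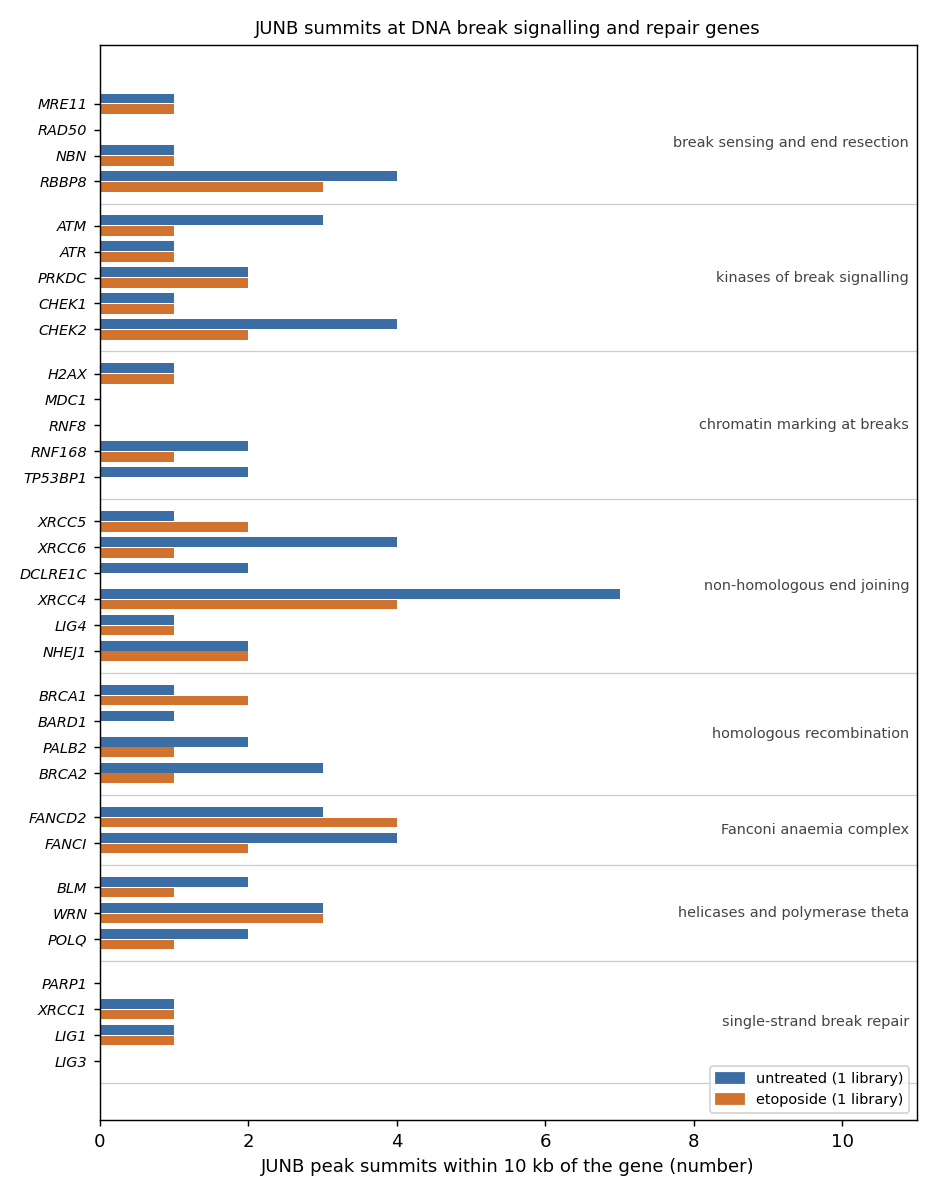
Number of JUNB summits within 10 kb of each of the 33 genes, grouped by role, without (blue) and with (orange) etoposide, 1 library each. XRCC4, the longest of these genes, had 7 untreated and 4 etoposide summits, and RAD50, MDC1, RNF8, PARP1 and LIG3 had none.

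Most of the boundary peaks sat at gene starts. The promoter table gave the strand of 28 of the 33 genes, and the starts of FANCI, NBN, PRKDC, WRN and XRCC5 were not placed. Of the 12 untreated boundary peaks, 8 lay within 1 kb of a start (at ATM, CHEK2, RNF168, XRCC6, DCLRE1C, PALB2 and BRCA2, with 2 at CHEK2), 2 lay within 1 kb of an end (FANCD2 and BLM), and those of NBN and FANCI were at boundaries of unknown kind. Of the 8 summits at starts, 7 were downstream of the start, where 44.7% of such summits over all genes were. The start here is the outer gene boundary, and 8 summits are few, with no interval computed. None of the 7 genes had an etoposide summit within 1 kb of its start. The gene with the nearest miss was RNF168, where an etoposide peak reached into the window with its summit 1.07 kb from the start.

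A promoter window each of ATM, PALB2 and DCLRE1C, where the start peaks reach into the window, and of RBBP8, whose start peak is described below, is printed. Each shows only the part of the peak that falls in the window, and the PALB2 and DCLRE1C summits lie outside it. Each is the RefSeq promoter window of GRCh38.p14, 250 bases before to 50 after a listed start, written 5′ to 3′ along the gene, with the bases under an untreated peak in capitals. No etoposide peak touched these 4 windows. They are those of ATM (chr11:108223075-108223374, plus strand, the downstream of 2 listed starts), PALB2 (chr16:23641261-23641560, minus strand), DCLRE1C (chr10:14954383-14954682, minus strand, the upstream of 2 listed starts) and RBBP8 (chr18:22933617-22933916, plus strand, the downstream of 2 listed starts).
ATM: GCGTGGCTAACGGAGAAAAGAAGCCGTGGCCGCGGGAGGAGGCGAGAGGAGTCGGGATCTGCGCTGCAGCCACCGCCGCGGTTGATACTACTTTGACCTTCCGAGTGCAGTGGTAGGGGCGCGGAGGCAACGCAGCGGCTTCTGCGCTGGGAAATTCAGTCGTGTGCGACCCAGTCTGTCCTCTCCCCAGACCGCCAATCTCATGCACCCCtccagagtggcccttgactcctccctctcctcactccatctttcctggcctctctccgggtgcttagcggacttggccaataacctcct
PALB2: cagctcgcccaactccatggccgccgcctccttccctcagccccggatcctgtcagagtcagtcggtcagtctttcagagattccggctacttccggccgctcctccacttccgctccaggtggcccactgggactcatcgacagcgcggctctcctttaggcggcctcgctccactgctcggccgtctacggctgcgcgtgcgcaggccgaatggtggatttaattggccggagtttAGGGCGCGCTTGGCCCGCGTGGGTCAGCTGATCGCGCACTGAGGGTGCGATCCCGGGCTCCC
DCLRE1C: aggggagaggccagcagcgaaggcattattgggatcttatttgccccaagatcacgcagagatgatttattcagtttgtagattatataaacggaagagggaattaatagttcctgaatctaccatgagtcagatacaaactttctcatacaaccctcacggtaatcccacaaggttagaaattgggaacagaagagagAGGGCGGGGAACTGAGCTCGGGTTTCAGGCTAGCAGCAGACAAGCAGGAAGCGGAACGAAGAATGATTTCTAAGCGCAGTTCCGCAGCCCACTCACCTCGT
RBBP8: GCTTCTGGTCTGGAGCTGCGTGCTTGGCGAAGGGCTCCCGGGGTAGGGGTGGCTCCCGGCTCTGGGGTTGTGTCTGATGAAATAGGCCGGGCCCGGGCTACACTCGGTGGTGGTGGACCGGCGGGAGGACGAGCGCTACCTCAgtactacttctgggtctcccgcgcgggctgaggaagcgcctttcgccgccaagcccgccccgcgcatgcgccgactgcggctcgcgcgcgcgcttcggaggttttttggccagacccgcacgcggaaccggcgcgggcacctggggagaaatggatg

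Peaks covered 211 of the 300 bases in ATM, 62 in PALB2, 101 in DCLRE1C and 143 in RBBP8. The AP-1 palindrome TGANTCA, searched on both strands, had no match in the capitals of any of them. Peak bases outside the promoter windows were not searched, among them the PALB2 and DCLRE1C summits. Its only match in the 39 promoter windows of the members was in DCLRE1C, as TGAGTCA at bases -125 to -119 from the start (the start is 0), in lower case above and 0.068 kb outside the untreated peak. Over all protein-coding genes 6.16% of 22140 windows held TGANTCA, against 2.56% of the members' windows. The related cyclic AMP element TGACGTCA was in 2 of the 39 windows (5.13%), both of them overlapping windows of LIG4 that hold the same copy, and in 2.26% of all windows. Members' windows had a median G and C content of 64.3% (47.0% to 73.7%) and 25 CG steps, beside 62.3% and 21 for all windows. An untreated peak touched 9 of the 39 windows (23.1%) and an etoposide peak 1 (2.56%), where the shares of all windows were 11.0% and 3.13%. The 9 windows belong to 6 genes, since ATM, DCLRE1C and RBBP8 each count with both of their listed starts.

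Kinases carry the signal from a break to the cell cycle. ATM had an untreated peak at its start (chr11:108223012-108223285) with 13 fragments at the summit (exact Poisson interval 6.92 to 22.2), 0.088 kb inside the gene. It lay 0.517 kb from NPAT, the gene that starts on the other side, and no etoposide peak was listed there. The authors' -log10 q of this peak was 5.44, rank 27184 of 32550, so it was among the weaker peaks of its list. Deeper in ATM the untreated list had peaks with 11 and 14 fragments, both inside the overlapping gene C11orf65 too, and the etoposide list a different one with 8. CHEK2, the effector kinase downstream of ATM, had an untreated peak 0.215 kb inside its start (chr22:28741546-28741766, 14 fragments) and a weak one 0.390 kb upstream, inside HSCB, with 7 fragments. Its shared peak in the gene body, at chr22:28710709-28711076 in the untreated list, had 21 fragments untreated and 15 after etoposide. Next to it the etoposide list had a separate peak with 14, and past the end of CHEK2 the untreated list had one with 11.

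ATR and CHEK1, the kinase pair that answers to stalled replication, had no boundary peak. ATR had 1 untreated peak, 8.90 kb inside its start with 6 fragments, and 1 etoposide peak, 52.0 kb from its end with 9. CHEK1 had an untreated peak with 9 fragments that lay inside its neighbour ACRV1 as well, and an etoposide peak with 8 fragments that lay inside STT3A. PRKDC, the catalytic subunit of DNA-dependent protein kinase, had a shared place 15.2 to 15.6 kb inside its boundary, with 12 and 13 fragments at a pair of untreated summits and 10 at the etoposide summit. An etoposide peak with 7 fragments lay 1.46 kb outside PRKDC and inside MCM4, a subunit of the replicative helicase. None of these ATR, CHEK1 or PRKDC peaks exceeded 13 fragments, the median of the etoposide list.

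Among the proteins that bind and trim the ends, NBN had a separate peak in each list. The untreated peak at chr8:89984344-89984587 lay 0.138 kb inside a boundary with 18 fragments (10.7 to 28.4), and the etoposide peak at chr8:89986730-89986944 lay 2.105 kb outside the same boundary with 19 fragments (11.4 to 29.7). Neither had a counterpart in the other list, and the signal at the other list's place was not measured. RBBP8, the nuclease partner that starts end resection, had a shared peak beside its listed starts, which lie well inside the gene boundary. Its untreated summit was 240 bp from a listed start with 10 fragments, its etoposide summit 116 bp from one with 8, and both lay inside the antisense gene RBBP8-AS1. By listed starts in place of boundaries, RBBP8 was the 1 member of 28 with an etoposide summit within 1 kb, and 8 of 28 had an untreated summit, against 6.61% and 17.5% of all genes with listed starts. RBBP8 also had shared peaks in the gene body, with 23 and 17 fragments, and 5.82 kb past its end, with 24 and 20, the latter beside an untreated peak with 13 and no counterpart. MRE11 had a peak with 12 fragments in the untreated list and, 109 bp away, a peak with 11 in the etoposide list. RAD50 had none within 10 kb, and its nearest summit in either list was 30.9 kb away.

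The 5 genes for chromatin proteins that mark a break had 5 untreated and 2 etoposide peaks. RNF168, which ubiquitinates histones beside the break, had adjoining untreated peaks at chr3:196502579-196502785 and chr3:196502891-196503105, each with 23 fragments (14.6 to 34.5), with summits 1.07 and 0.722 kb inside the start. In the etoposide list a single peak, chr3:196502579-196503061, spanned this place with 20 fragments (12.2 to 30.9) and its summit at the same base as the first. A peak was thus listed at RNF168 in both libraries, and only the position of the etoposide summit kept it out of the boundary count. TP53BP1, which steers breaks toward end joining, had untreated peaks with 14 and 16 fragments in its body and no etoposide peak within 10 kb, the nearest being 218 kb away. H2AX is only 1.592 kb long, and its etoposide peak, with 7 fragments, lay 6.51 kb away beside DPAGT1. MDC1 and RNF8 had none, and their nearest untreated summits were 42.1 and 13.4 kb away, each a peak with a counterpart after etoposide.

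In non-homologous end joining every gene had an untreated summit within 10 kb, and 5 of 6 had an etoposide summit. The shares of all protein-coding genes were 49.6% and 38.9%. Among genes of similar length the untreated share ran from 32.5% for LIG4 to 81% for XRCC4, and the etoposide share from 20.5% to 76.5%. The strongest peak near any of the 33 genes lay 2.97 kb past the end of XRCC4, the scaffold of the ligation complex. It had 42 fragments in the untreated list (chr5:83377328-83377588, 30.3 to 56.8) and 33 in the etoposide list (chr5:83377106-83377864, 22.7 to 46.3), and it ranked 684 and 694. The next protein-coding gene, VCAN, which codes for the matrix proteoglycan versican, was 94.3 kb away. XRCC4 also had an untreated peak with 30 fragments, 18.4 kb inside the gene, that had no etoposide counterpart. Its other peaks had 8 to 15 fragments untreated and 8 to 13 after etoposide, and of these a place with 9 and 10 fragments at a pair of untreated summits and 8 after etoposide was shared. XRCC6, a Ku subunit, had a weak untreated peak 0.119 kb inside its start with 9 fragments, 0.371 kb from its neighbour DESI1. Past its end, XRCC6 had a shared peak with 21 fragments untreated and 17 after etoposide, and an untreated peak with 26 fragments and no counterpart. DCLRE1C, the Artemis nuclease, had an untreated peak 0.078 kb inside its start with 16 fragments, and another 5.09 kb upstream with 17. Both DCLRE1C peaks lay inside the neighbouring gene MEIG1 too, and no etoposide peak lay within 10 kb. XRCC5, the other Ku subunit, had a shared peak with 15 and 11 fragments and an etoposide peak with 12 and no counterpart. NHEJ1, which bridges the ends, had a shared peak with 10 fragments in either list, an untreated peak with 9 and an etoposide peak with 8. LIG4, the ligase of this pathway, had a shared peak with 12 and 8 fragments that lay 9.66 kb away inside ABHD13.

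In homologous recombination 2 of 4 genes, BRCA2 and PALB2, had an untreated boundary summit and 0 of 4 had one after etoposide. The shares of all protein-coding genes were 16.6% and 6.87%. BRCA2, which loads the recombinase on single-stranded DNA, had an untreated peak (chr13:32315921-32316278) with 19 fragments (11.4 to 29.7), 0.976 kb from the gene boundary and 0.545 kb from the listed start. At rank 7204 it was the first of the 12 boundary peaks by -log10 q, and no etoposide peak was listed there. A second place 8.81 kb inside BRCA2 was shared, with 27 fragments untreated (17.8 to 39.3) and 12 after etoposide (6.20 to 21.0), the lowest ratio among the members' shared peaks at 0.444. PALB2, the bridge between BRCA1 and BRCA2, had an untreated peak 0.106 kb inside its start with 10 fragments, 0.262 kb from DCTN5. Its shared peak near the other end of the gene went the other way, with 8 fragments untreated and 12 after etoposide, though these counts overlap in their intervals. BARD1, the partner of BRCA1, had an untreated peak 2.14 kb inside its start with 10 fragments and none after etoposide.

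BRCA1 differed from this pattern. A shared peak deep in the gene (chr17:43094346-43094615 in the untreated list) had 19 fragments untreated (11.4 to 29.7) and 20 after etoposide (12.2 to 30.9), at ranks 5348 and 2630. A further peak, chr17:43172164-43172434, was in the etoposide list alone, 1.95 kb upstream of the outermost BRCA1 start and inside the neighbour NBR1, with 16 fragments. It fell outside the 1 kb window and counted as a flanking peak.

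FANCD2 and FANCI form the clamp that is loaded on DNA at crosslinks. FANCD2 was the member with a boundary summit in both libraries, at its end and inside FANCD2OS, but these were different peaks. The untreated one (14 fragments) lay 0.218 kb and the etoposide one (7 fragments) 0.668 kb from the end, 180 bp apart and without overlap. Upstream of FANCD2, a shared peak 2.48 kb from the start, inside the pseudogene CIDECP1, had 27 fragments untreated and 17 after etoposide. FANCI had an untreated peak 0.226 kb inside a boundary with 9 fragments, and a shared peak with 16 and 18.

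The peaks of the helicases BLM and WRN and of polymerase theta all lay inside the genes. POLQ, the polymerase of microhomology-mediated joining, had untreated summits with 37 and 21 fragments 51.3 and 51.7 kb from its end, both overlapped by an etoposide peak with 19. WRN had shared peaks with 18 fragments in either list and with 20 and 12, and a peak of its own with 6 in each list. BLM had a shared peak with 15 and 11 fragments, and an untreated peak with 9 fragments 0.812 kb inside its end. Single-strand break repair had 2 untreated peaks, the fewest of the roles, and 2 etoposide peaks, as many as the chromatin proteins. The roles differ in number and length of genes, which these peak numbers do not take into account. LIG1 had a shared peak 7.68 kb past its end, inside PLA2G4C, with 22 fragments untreated (13.8 to 33.3) and 10 after etoposide (4.80 to 18.4). XRCC1 had an untreated peak with 12 fragments inside ZNF575 and an etoposide peak with 7 in its own body. PARP1, the sensor of nicked DNA, and LIG3 had none within 10 kb, with the nearest untreated summits 91.5 and 11.9 kb away.

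**Figure D3:**
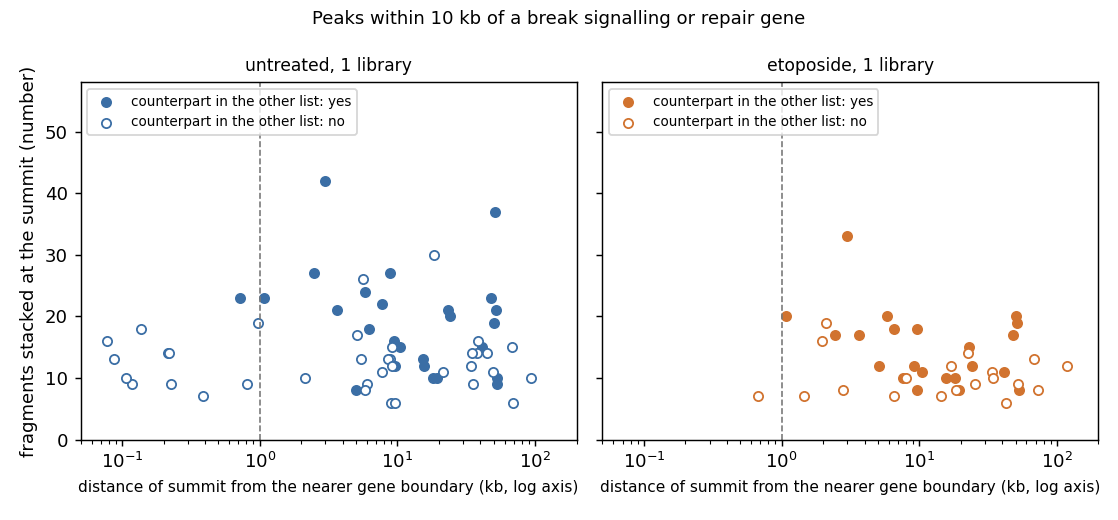
Each point is a peak within 10 kb of a member, at the distance of its summit from the nearer gene boundary (kb, log axis) and the number of fragments at the summit, without (left) and with (right) etoposide. Filled points have a counterpart in the other list, and the dashed line marks 1 kb; left of it are 12 untreated peaks, 1 of them with a counterpart, and 1 etoposide peak.

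Counterparts were rarer at the boundaries of these genes than elsewhere. Of the 12 untreated boundary peaks 1 overlapped an etoposide peak (8.33%, 1.49% to 35.4%), where the share was 27.8% of the 3049 boundary peaks of the whole list. Of the 50 other untreated peaks near members 25 did (50%, 36.6% to 63.4%), beside 53.4% of peaks elsewhere in the list. The interval of the members' boundary share takes in that of all boundary peaks. Boundary peaks of the members had a median of 13.5 fragments (7 to 23) and a median rank of 17689.5, beside 14 fragments and rank 17828 for the members' other untreated peaks and 13 fragments and rank 19132 for all boundary peaks of the list. Their local background had a median of 1.15 fragments, against 1.07 for all boundary peaks and 1.27 over the untreated list. In strength they were thus close to both of the other classes of peak.

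At shared places the fragment numbers of the members were close to those of all shared peaks. Over 26 untreated peaks with a counterpart, the ratio of etoposide to untreated fragments had a median of 0.8 (quartiles 0.719 and 0.884), and over all 16610 such peaks 0.778 (0.621 and 1). The 26 pairs rest on 22 etoposide peaks. At PRKDC, RNF168, POLQ and 1 place in XRCC4 a pair of untreated peaks overlapped the same etoposide peak, each time with ratios below 1. The ratio was below 1 at 21 of the 26, equal to 1 at NHEJ1 and at a WRN peak, and above 1 at BRCA1, FANCI and PALB2. Over the whole list it was below 1 at 12193 of 16610 shared peaks and above 1 at 3462, so the members' split was close to the general one. It is not corrected for depth. The lowest ratios, at BRCA2 (0.444), LIG1 (0.455) and POLQ (0.514), came from untreated peaks with 27, 22 and 37 fragments.

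**Figure D4:**
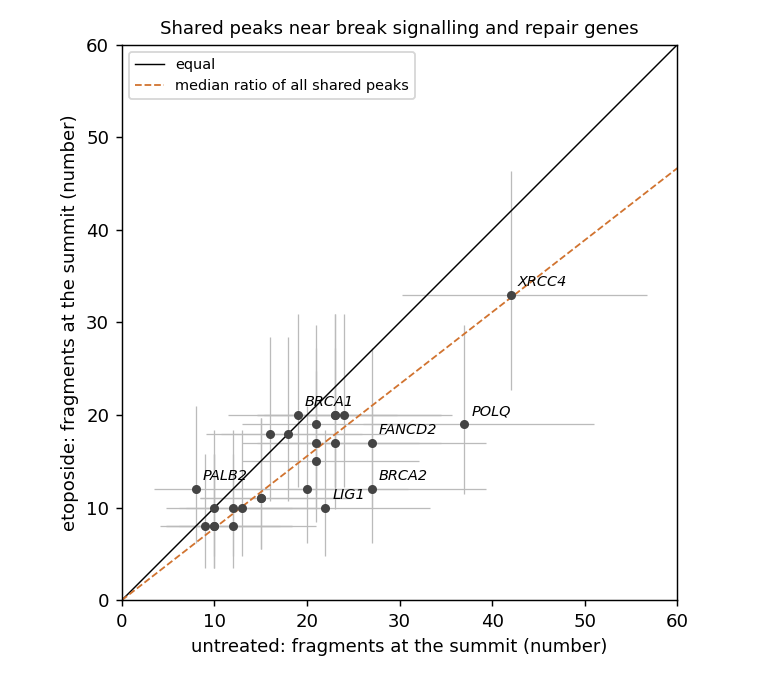
Fragments at the summit in the etoposide library against the untreated library, for the 26 untreated peaks near members that have an etoposide counterpart, with exact 95% Poisson intervals. The solid line is equality and the dashed line the median ratio of all shared peaks, 0.778; 21 points lie below equality.

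Other genes of DNA repair were counted from lists drawn up for this work. Of 106 further repair genes, 38 (35.8%) had an untreated summit within 1 kb of a boundary and 10 (9.43%) an etoposide summit, and 7 had both. Over all genes 6.87% had an etoposide boundary summit and 5.17% had one in both libraries. Within 10 kb the numbers for the 106 genes were 71 (67.0%) and 49 (46.2%), beside 49.6% and 38.9% of all genes. The untreated boundary share of these 106 genes was close to that of the 33 members, and both were above the 16.6% of all genes. No comparison with genes alike in length or in having a close neighbour was made for these other lists. By list, boundary summits were found without and with etoposide at 11 and 1 of 24 other recombination genes, 4 and 1 of 11 other end joining genes, and 3 and 2 of 15 other checkpoint genes. They were found at 4 and 0 of 10 other chromatin and ubiquitin genes, 3 and 0 of 11 other Fanconi anaemia genes, 5 and 2 of 13 nucleotide excision genes, 4 and 3 of 16 base excision genes, and 5 and 1 of 8 mismatch genes. Replication and mitosis genes had 5 and 1 of 30, and their untreated share of 16.7% was at the level of all genes. The lists are small, and why they differ was not tested.

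The strongest boundary peaks of these other genes, a larger set, had more fragments than the members' maximum of 23, but most had fewer. XPC, the damage sensor of nucleotide excision repair, had untreated summits with 32, 29 and 20 fragments at its end and etoposide summits with 20 and 12. OGG1 (14 and 13 fragments), FEN1 (9 and 14), RPA3 (6 and 14) and POLL (14 and 7) also had a boundary summit in both libraries. Among the strongest boundary peaks of the lists, at genes without a summit in both libraries, were untreated peaks of MCM7 (20 fragments), RMI1 (17), EXO1 (15), MCM3 (15), UBE2N (14), POLM (13), RNF169 (13), TIMELESS (13), APEX1 (13), RIF1 (12), FANCG (12) and FANCL (9), and etoposide peaks of ERCC2 and CDC25C (9 each). PARP2 had the strongest of the etoposide peaks: an etoposide peak with 23 fragments lay 0.446 kb upstream of its start at rank 1289, and the untreated list had none.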

How the data were processed

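Per the labels, JUNB was profiled by CUT&RUN in untreated and etoposide-treated IMR-90 cells, 1 library each, grouped by treatment. The submitters' processing notes name Bowtie2, MACS2, hg38 and mm10 without roles or settings. The authors deposited 1 peak list per library, in narrowPeak layout. Its deposited columns give a fold ratio over local background, -log10 p, -log10 q, a score (10 times -log10 q) and the summit.

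Peaks on chromosomes 1 to 22 and X were used, leaving out 2.81% of untreated and 3.20% of etoposide peaks. Summits were counted within 1 kb of either boundary of a RefSeq GRCh38.p14 gene and within 10 kb of the gene. Exons and introns were not used here. The comparison was the 200 non-member genes nearest in length to each member. Peaks were shared with at least 1 bp in common. Fragments k and background b solve fold = (k + 1)/(b + 1) and the Poisson tail, and did so within 0.001 of the deposited -log10 p for 100% of peaks. Counting and recovery were tested on simulated data. SciPy 1.17.1 and pandas 2.3.3 were used.

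The members and lists were chosen with earlier results of these data known. Every member was named. Of other lists, genes with a boundary summit in both libraries were named, and otherwise the 2 strongest boundary peaks per list by -log10 q. Some items that this rule selects are not reported here. No test was run, since each condition had 1 library.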

Additional observations from a re-analysis of the deposited data

How the results depend on the processing

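The members' counts within 1 kb of a boundary were 10 untreated and 0 etoposide at a -log10 q of at least 5 (14.1% and 5.54% of all genes). Among the 10000 strongest peaks of each list they were 1 and 0 (3.73% and 2.01%). At gene starts alone they were 7 and 0 of the 28 members with a listed strand (15.6% and 5.60% of all genes with a listed strand). With a 3 kb window the etoposide count was 7 beside 13 untreated, and with any base of the peak in the window it was 2 beside 11. The shares of all genes were not counted at these settings. Among the 10000 strongest peaks the counts within 10 kb were 10 untreated and 11 etoposide, where 22.1% and 20.4% of all genes had a summit. Over all genes the libraries were thus close within 10 kb at this setting, but less so at boundaries (3.73% and 2.01%). The setting changes the number and the strength of the peaks together, and the cause was not tested. The counts of other repair genes among these peaks were 4 and 5 at boundaries and 23 and 25 within 10 kb. The other alternative values, 27 planned and 4 chosen after the data had been seen (listed transcript starts, and similar length with a close neighbour), stayed within 1.5 times. No member lay within 1 Mb of another, so that alternative removed none. No paired analysis was possible because each condition had 1 library, and none could be left out. Depth limits weak peaks most, and relative depth was not corrected.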

Other observations

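Some peaks without a counterpart lay close to a peak of the other list. Within 500 bp, a distance chosen after the data had been seen, this was true of 7 of the members' 36 untreated peaks without a counterpart (19.4%, 9.75% to 35.0%), beside 14.3% over the list, and of 7 of 19 etoposide peaks (36.8%, 19.1% to 59.0%), beside 15.6%. The gaps ran from 55 bp in XRCC4 to 180 bp at the end of FANCD2, with others in or beside RBBP8, MRE11, FANCI, CHEK2 and NHEJ1 and upstream of FANCD2. None of these 7 untreated peaks was at a gene start.

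Not every peak near a member can be read as a peak of that gene. Of the 14 untreated peaks outside a member but within 10 kb and over 1 kb from its boundary, 6 lay inside another protein-coding gene, as did 5 of 12 etoposide peaks. When each summit was given to the nearest protein-coding gene alone, 23 members had an untreated summit within 10 kb and 21 an etoposide summit. The boundary counts were then 11 and 1. The shares of all genes and of genes of similar length were not counted under this rule, so these numbers cannot be set beside the shares given above.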
